A study of Mus musculus with 7 samples.

Results

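The organic ion carriers and drug-exporting ABC transporters of the kidney were examined in lupus-prone mice given an Aurora kinase B inhibitor. The genes were selected by symbol and biotype, as protein-coding genes whose symbols begin with Slc22a, Slco, Slc47a, Slc17a, Abcb, Abcc or Abcg. This rule was set with earlier results of these data known. They numbered 76 of the 53465 genes in the deposited table, with 25 in Slc22a, 14 in Slco, 2 in Slc47a, 9 in Slc17a, 10 in Abcb, 10 in Abcc and 6 in Abcg. A further 2 symbols with these beginnings are annotated as pseudogenes and were left out. The kidneys came from 4 MRL/lpr mice that had received AZD1152 (barasertib, a prodrug of an Aurora kinase B inhibitor) and from 3 MRL/lpr mice that had received vehicle. MRL/lpr mice carry the lpr mutation of Fas, the receptor of a cell death pathway, and develop autoimmune nephritis. All 7 mice therefore share the diseased background, and neither untreated mice nor a healthy strain entered the comparison. The labels name the tissue as renal tissue and give no dose, schedule, age or sex.

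Organic ion carriers move charged drugs, toxins and metabolites across the proximal tubule, the segment of the nephron behind the glomerulus. Carriers on the blood side, such as the organic anion transporters encoded by Slc22a6 and Slc22a8 and the organic cation transporter encoded by Slc22a2, load the cell. Carriers and pumps on the urine side, such as those encoded by Slc47a1, Slc17a1, Abcc2, Abcc4, Abcg2 and Abcb1a, empty it. ABC transporters use ATP to pump, while the Slc22a, Slco, Slc47a and Slc17a proteins are carriers that use gradients of other solutes. In cultured cancer cells, the human pumps ABCB1 and ABCG2 can export the active form of AZD1152.

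Each mouse gave 1 poly(A)-selected library, with 14692113 to 17036862 read counts, so 3 counts correspond to 0.166 to 0.212 CPM (a count scaled to a common library size, with TMM factors). The listed genes took 0.604% to 0.694% of the counts in AZD1152 kidneys and 0.565% to 0.605% in vehicle kidneys. Markers of the proximal tubule were abundant in all libraries, with summed levels of 31400 to 38200 CPM in AZD1152 kidneys and 20600 to 25800 CPM in vehicle kidneys. AZD1152 replicate 2 had 11.6% of its counts from the mitochondrial genome, against 8.03% to 9.76% in the other 6 libraries, and vehicle replicate 3 had the lowest proximal tubule sum. Some results that rest on either are given without it below. Without AZD1152 replicate 2, the log2 fold changes of Slc22a6, Abcc2, Abcc4 and Abcg2 were 0.1, 0.08, 0.1 and 0.06. Genes outside the listed ones, and marker lists, are given with all libraries only.

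Of the carriers and transporters that passed the test, all but 1 rose in AZD1152 kidneys. Of the 76 genes, 54 passed the filter on low counts. Among these, 7 rose and 1 fell in AZD1152 kidneys in edgeR's quasi-likelihood test at a Benjamini-Hochberg adjusted p under 0.05 over 15774 genes. Those are 13.0% and 1.85% of the 54, beside 3.02% of all genes tested that were higher and 4.81% that were lower. The median log2 fold change was 0.16 over the 54 and 0.00 over all genes tested. The 7 that rose were Slc22a5, Slc22a17, Slc22a22, Slc22a28, Slc22a29, Slc22a30 and Slc17a1, and the 1 that fell was Slco2a1. In 15 of the 54 every AZD1152 library was above every vehicle library, which is 27.8%, beside 11.2% of all genes tested, and in 4, or 7.41%, every AZD1152 library was below, beside 11.6%. Slc22a had 6 of 23 tested members higher, with a median log2 fold change of 0.43, while the Slco, Abcb, Abcc and Abcg families had 0 higher and medians of -0.29, 0.15, 0.06 and -0.61. The counts rested on single libraries: without vehicle replicate 3 only Slc22a29 passed, without vehicle replicate 1 the calls were 2 higher and 1 lower, and without AZD1152 replicate 4 they were 1 and 1. With scaling by total counts the median over all genes was -0.151 (log2), that over the 54 was 0.01, and Slc22a17 and Slc17a1 then did not pass. In bulk tissue, fewer cells of a type and less RNA per cell cannot be told apart.

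**Figure D1:**
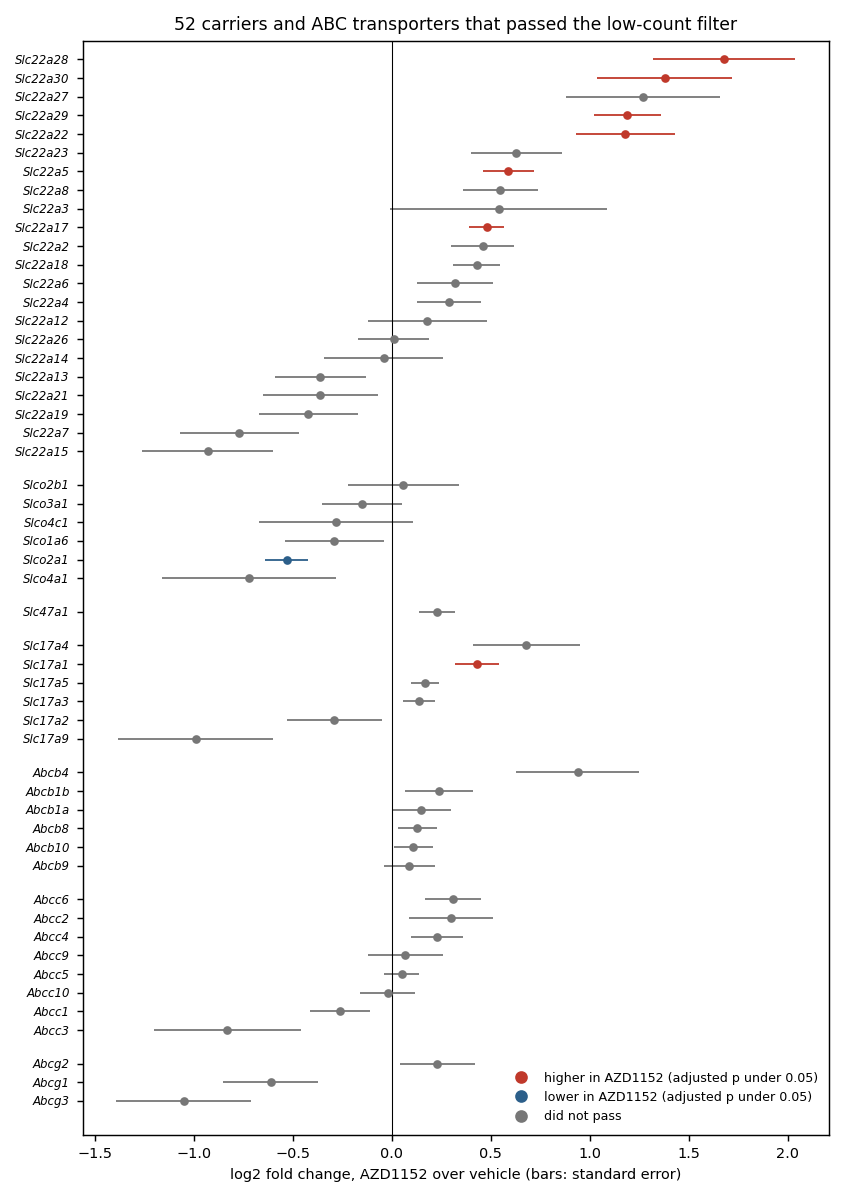
Log2 fold change of 52 of the tested genes, AZD1152 over vehicle, on the horizontal axis with its standard error as a bar, and genes by family down the page. Red points are the 7 genes that rose, the blue point is Slco2a1, which fell, and grey points did not pass the test.

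Abundant transcripts, per length, included those of carriers of organic cations, organic anions, urate and carnitine. Levels per length are in CPM per kilobase of exon. Slc22a18, an imprinted carrier gene, had a level of 200 ± 20.3 CPM per kilobase in AZD1152 kidneys and 149 ± 19.6 in vehicle kidneys (SD, n = 4 and 3, as in all pairs below). In vehicle kidneys it was followed by Slc47a1, Slc22a8, Slc17a1, Slc22a6 and Slc22a5, which ranged from 146 to 98.9 CPM per kilobase. Each gene in that order overlapped the next over the 3 vehicle libraries, down to Slc22a5. Between Slc22a5 (81.3 to 117 CPM per kilobase in vehicle kidneys) and Slc22a7, the next in order (44.5 to 59.3), the ranges did not overlap. Of the Abcb, Abcc and Abcg genes Abcg2 stood highest, at 45.3 ± 10.4 CPM per kilobase in AZD1152 kidneys and 38.6 ± 7.19 in vehicle kidneys. It was followed in vehicle kidneys by Abcc3 and Abcc2 with 31.9 and 29.0 CPM per kilobase. The order among AZD1152 kidneys differed in places. Slc22a8 stood at rank 2 in AZD1152 kidneys and at rank 4 in vehicle kidneys, while Slc22a7 stood at 14 in AZD1152 kidneys and at 8 in vehicle kidneys. Slc22a29 was at rank 16 in AZD1152 kidneys and at 24 in vehicle kidneys. The 10 genes most abundant in vehicle kidneys held 63.6% to 64.3% of the counts of all 76 in AZD1152 libraries and 59.3% to 62.3% in vehicle libraries.

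**Figure D2:**
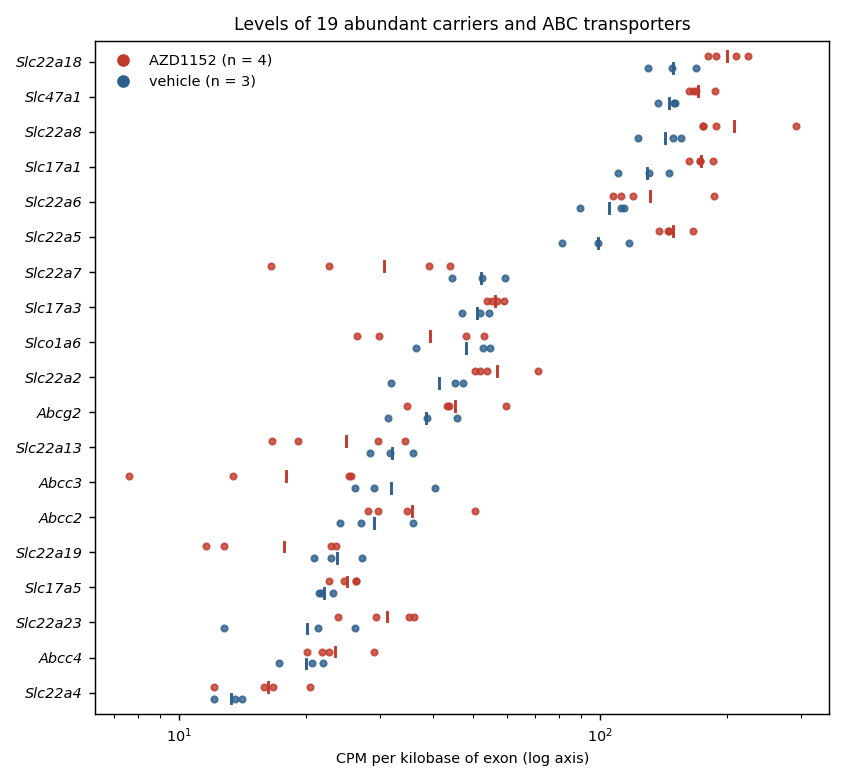
Level of 19 of the genes most abundant in vehicle kidneys, in CPM per kilobase of exon, on a log axis, with 1 point a mouse and a bar at the mean. The 6 genes at the top stand apart from the rest in vehicle kidneys, and Slc22a7, Abcc3 and Slc22a19 spread widely among AZD1152 kidneys.

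The highest fold changes came from a run of related organic anion carriers on chromosome 19. The run holds 8 of the genes within 955.2 kb, in the order Slc22a19, Slc22a26, Slc22a27, Slc22a28, Slc22a29, Slc22a30, Slc22a8 and Slc22a6. Slc22a27 to Slc22a30 are rodent carriers of the organic anion group, and Slc22a19 encodes OAT5, a carrier of sulfated steroids. Slc22a29 (ENSMUSG00000075044; GRCm38 chromosome 19, 8160165 to 8218900, minus strand) had 52.7, 70.0, 58.2 and 53.1 CPM in AZD1152 replicates 1 to 4, against 29.2, 29.4 and 18.6 CPM in vehicle replicates 1 to 3. Every treated kidney held more of it than any vehicle kidney. Its log2 fold change was 1.19 ± 0.17 (SE; adjusted p = 0.0108 in edgeR), and it passed under all 15 alternatives, where adjusted p was at most 0.0385. Slc22a28 (ENSMUSG00000063590; 8062209 to 8131982, minus strand) had 18.1, 28.5, 9.57 and 13.2 CPM in AZD1152 kidneys, against 5.82, 6.56 and 3.88 CPM in vehicle kidneys. The groups did not overlap, and the treated kidneys differed by up to 2.98-fold among themselves, with replicate 2 highest and replicate 3 lowest. It rose by a log2 fold change of 1.68 ± 0.36 (adjusted p = 0.0296 in edgeR), the highest estimate among the 54. Slc22a30 (ENSMUSG00000052562; 8335371 to 8405111, minus strand) had 5.86, 8.76, 2.87 and 5.94 CPM in AZD1152 kidneys, against 2.50, 2.22 and 2.00 CPM in vehicle kidneys, and a log2 fold change of 1.38 ± 0.34 (adjusted p = 0.0439 in edgeR). Replicate 2 was again the highest and replicate 3 the lowest of the treated kidneys. Without AZD1152 replicate 2 the log2 fold change was 1.32 for Slc22a28, which still passed, and 1.11 for Slc22a30, which did not (adjusted p = 0.0797 in edgeR). The Slc22a28 call was lost without AZD1152 replicate 1 or 4 or vehicle replicate 1 or 3 (adjusted p = 0.0505 to 0.119 in edgeR), and of the 7 libraries only AZD1152 replicate 3 could be left out with the Slc22a30 call kept. With limma-voom Slc22a30 did not pass either (adjusted p = 0.0795).

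The neighbours in the run did not pass in edgeR, and their estimates went both ways, while DESeq2 called Slc22a27 and Slc22a8. Slc22a27 was low throughout, with 1.27, 3.45, 1.66 and 1.56 CPM in AZD1152 kidneys against 0.814, 0.855 and 0.776 CPM in vehicle kidneys (log2 fold change 1.27 ± 0.39, adjusted p = 0.0802 in edgeR). Slc22a26 averaged 11.7 ± 2.07 CPM in AZD1152 kidneys and 11.7 ± 2.36 CPM in vehicle kidneys. Slc22a19 had 128, 62.9, 69.8 and 125 CPM in AZD1152 kidneys, against 114, 125 and 148 CPM in vehicle kidneys (log2 fold change -0.42 ± 0.25, adjusted p = 0.345 in edgeR), so that replicates 2 and 3 were low while replicates 1 and 4 lay within the vehicle range. The transcripts of Slc22a27 to Slc22a30 are alike. Over aligned bases, Slc22a29 matched Slc22a27 at 96.8% and Slc22a28 matched Slc22a30 at 91.8%. Of the stretches of 50 bases in the Slc22a28 transcript, 53.9% also occur in another gene, mostly Slc22a30, and for Slc22a27, Slc22a29 and Slc22a30 the share was 30.5%, 30.5% and 36.1%. Their counts therefore depend on how shared reads were assigned, while Slc22a26 and Slc22a19 share 5.88% and 2.72%.

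**Figure D3:**
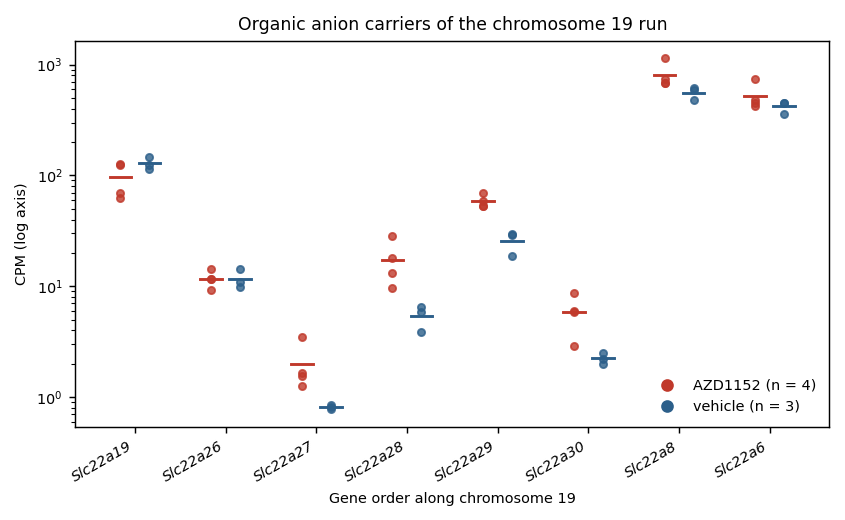
CPM on a log axis of the 8 genes of the run, in their order along chromosome 19, with 1 point a mouse and a bar at the mean. The groups are apart for Slc22a27, Slc22a28, Slc22a29, Slc22a30 and Slc22a8, and overlap for Slc22a19, Slc22a26 and Slc22a6.

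The promoters of the 3 genes of the run that rose, and of 2 neighbours that did not pass, are shown to compare their letters. The windows are from RefSeq (GRCm38.p6) and run from 250 bases before to 50 bases after the annotated start, 5′ to 3′ on the minus strand, with GTTAAC in capitals. GTTAAC reads the same on both strands. The capitals let the windows be lined up by eye.
Slc22a28 (chr19:8131933-8132232): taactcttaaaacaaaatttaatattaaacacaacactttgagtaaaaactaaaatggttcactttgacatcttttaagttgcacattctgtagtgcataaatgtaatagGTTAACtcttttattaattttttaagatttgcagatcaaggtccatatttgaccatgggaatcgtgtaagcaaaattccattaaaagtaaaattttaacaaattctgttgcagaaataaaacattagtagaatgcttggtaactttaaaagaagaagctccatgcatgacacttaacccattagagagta
Slc22a29 (chr19:8218851-8219150): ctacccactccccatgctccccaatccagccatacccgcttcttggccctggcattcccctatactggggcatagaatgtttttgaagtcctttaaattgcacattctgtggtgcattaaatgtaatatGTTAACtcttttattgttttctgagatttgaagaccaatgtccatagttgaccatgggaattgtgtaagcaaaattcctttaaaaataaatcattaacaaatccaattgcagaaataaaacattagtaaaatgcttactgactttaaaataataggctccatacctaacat
Slc22a30 (chr19:8405056-8405355): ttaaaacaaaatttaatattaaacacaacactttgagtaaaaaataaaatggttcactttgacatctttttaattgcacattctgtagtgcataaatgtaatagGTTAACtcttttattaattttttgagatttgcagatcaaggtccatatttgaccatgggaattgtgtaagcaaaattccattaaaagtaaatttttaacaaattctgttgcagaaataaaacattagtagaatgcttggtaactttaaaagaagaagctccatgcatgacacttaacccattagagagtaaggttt
Slc22a26 (chr19:7802618-7802917): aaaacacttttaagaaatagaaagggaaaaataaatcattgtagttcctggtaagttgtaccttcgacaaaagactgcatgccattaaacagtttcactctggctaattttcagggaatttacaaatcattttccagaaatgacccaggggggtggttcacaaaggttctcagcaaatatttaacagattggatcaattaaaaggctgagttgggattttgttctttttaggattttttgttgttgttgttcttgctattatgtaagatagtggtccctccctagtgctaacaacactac
Slc22a19 (chr19:7711261-7711560): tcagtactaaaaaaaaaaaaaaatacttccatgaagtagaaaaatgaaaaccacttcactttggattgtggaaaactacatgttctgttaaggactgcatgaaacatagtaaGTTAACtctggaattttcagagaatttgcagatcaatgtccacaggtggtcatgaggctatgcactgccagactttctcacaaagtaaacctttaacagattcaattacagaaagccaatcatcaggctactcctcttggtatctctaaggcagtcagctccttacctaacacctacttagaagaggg

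The windows of Slc22a28 and Slc22a30 matched at 98.0% of aligned bases, those of Slc22a29 and Slc22a30 at 84.5%, and those of Slc22a29 and Slc22a28 at 83.2%. Slc22a19 and Slc22a26 matched these 3 at 59.6% to 66.4%. GTTAAC stood in the windows of Slc22a28, Slc22a29, Slc22a30 and also Slc22a19, whose estimate was negative, and it was not found in those of Slc22a26 and Slc22a27. Among 32851 promoter windows of the same length 3.05% hold it on either strand. Of the 60 listed genes that had a window, it stood in 7 of 73 windows, or 9.59%. These are not independent, as they include those of the related neighbours Slc22a19, Slc22a28, Slc22a29 and Slc22a30. The others were those of Slc17a3, Abcc2 and Slco1a5. GTTAAT, which differs from it in the last base, stood in 5.48% of the 73 windows, beside 7.1% of all windows. CAAAGTCCA, a sequence bound by HNF4 factors, was found in 0 of the 73 windows and in 0.475% of all windows, counting both strands.

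**Figure D4:**
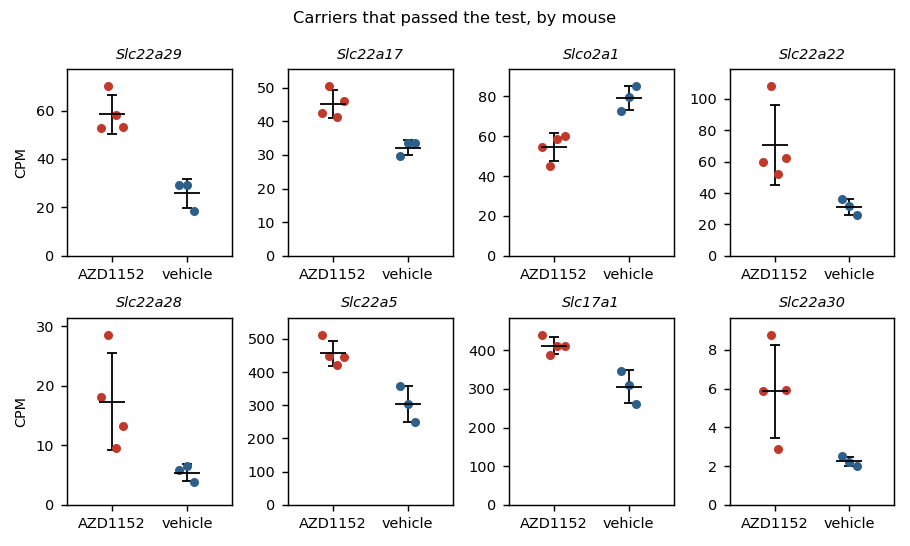
CPM in each mouse for the 8 genes that passed the test, with the mean and SD in black. The groups do not overlap for any of the 8, which were picked by the test on these same libraries. Over all genes tested, AZD1152 was wholly above vehicle in 11.2% and wholly below in 11.6%. Slc22a22, Slc22a28 and Slc22a30 spread most among AZD1152 kidneys.

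Carriers of prostaglandins, lipid messengers that are taken up by cells before they are broken down, moved in opposite directions. Slc22a22 (ENSMUSG00000022366; chromosome 15, 57243767 to 57477625, minus strand) encodes OAT-PG, a prostaglandin carrier of the mouse proximal tubule. It had 59.6, 108, 52.2 and 62.2 CPM in AZD1152 kidneys, against 36.1, 31.5 and 25.7 CPM in vehicle kidneys. All treated kidneys were above the vehicle kidneys, and replicate 2 was highest. It rose by a log2 fold change of 1.18 ± 0.25 (adjusted p = 0.0263 in edgeR), and by 0.89 without AZD1152 replicate 2, where it still passed. Slco2a1 (ENSMUSG00000032548; chromosome 9, 102988712 to 103096002, plus strand) encodes the prostaglandin transporter PGT. It had 54.6, 44.9, 58.6 and 60.3 CPM in AZD1152 kidneys, against 72.7, 79.6 and 85.0 CPM in vehicle kidneys, with every treated kidney below every vehicle kidney. It fell by a log2 fold change of -0.53 ± 0.11 (adjusted p = 0.0238 in edgeR). Abcc4, a pump on the urine side that also exports prostaglandins, averaged 150 ± 24.9 CPM in AZD1152 kidneys and 128 ± 15.5 CPM in vehicle kidneys and did not pass (log2 fold change 0.23 ± 0.13, adjusted p = 0.334 in edgeR). The Slc22a22 call was lost when AZD1152 replicate 4 or any single vehicle library was left out (adjusted p = 0.0544 to 0.109 in edgeR), and the Slco2a1 call without vehicle replicate 3 (0.0982).

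Slc22a17, which encodes a receptor that takes up the injury protein lipocalin-2, rose while the lipocalin-2 gene fell. Slc22a17 (ENSMUSG00000022199; chromosome 14, 54906304 to 54913132, minus strand) had 42.5, 50.4, 41.3 and 46.1 CPM in AZD1152 kidneys, against 29.7, 33.5 and 33.4 CPM in vehicle kidneys. The values were tight in both groups and did not overlap, with a log2 fold change of 0.48 ± 0.09 (adjusted p = 0.022 in edgeR). Lcn2 had 6.77, 3.05, 15.6 and 6.93 CPM in AZD1152 kidneys, against 38.6, 15.4 and 75.5 CPM in vehicle kidneys. AZD1152 replicate 3 and vehicle replicate 2 were nearly level, so the groups overlapped, and the log2 fold change was -2.41 ± 0.57 (adjusted p = 0.0392 in edgeR). The Slc22a17 call was lost without AZD1152 replicate 4 or vehicle replicate 1 or 3 (adjusted p up to 0.0719 in edgeR).

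The carnitine carrier rose, and its close neighbours did not pass. Carnitine carries fatty acids into mitochondria, and the OCTN2 carrier encoded by Slc22a5 (ENSMUSG00000018900; chromosome 11, 53864542 to 53891660, minus strand) recovers it from the urine. Slc22a5 had 511, 448, 422 and 444 CPM in AZD1152 kidneys, against 358, 304 and 250 CPM in vehicle kidneys. The groups did not overlap, with vehicle replicate 3 lowest, and the log2 fold change was 0.59 ± 0.13 (adjusted p = 0.0305 in edgeR). Within the same 163.5 kb of chromosome 11, Slc22a4, which encodes the ergothioneine carrier OCTN1, averaged 41.5 ± 8.75 CPM in AZD1152 kidneys and 33.9 ± 2.57 CPM in vehicle kidneys (adjusted p = 0.285 in edgeR). Slc22a21, a rodent carnitine carrier gene, averaged 2.43 ± 0.91 CPM in AZD1152 kidneys and 3.12 ± 0.522 CPM in vehicle kidneys (adjusted p = 0.5 in edgeR). Of the 50-base stretches of the Slc22a5 transcript 26.9% also occur in Slc22a21. The Slc22a5 call was lost without AZD1152 replicate 1, 2 or 4 or vehicle replicate 2 or 3 (adjusted p = 0.0539 to 0.0862 in edgeR).

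Of the genes Slc17a1, Slc17a3, Slc22a12 and Abcg2, which handle urate, a product of purine breakdown, only Slc17a1 rose. Over all genes tested 3.02% were higher. Slc17a1 (ENSMUSG00000021335; chromosome 13, 23867750 to 23895730, plus strand) encodes NPT1, a phosphate and urate carrier on the urine side. It had 439, 387, 411 and 411 CPM in AZD1152 kidneys, against 346, 311 and 261 CPM in vehicle kidneys, and the groups did not overlap. Its log2 fold change was 0.43 ± 0.11 (adjusted p = 0.0426 in edgeR), and it did not pass when any 1 of the 7 libraries was left out (adjusted p = 0.052 to 0.113 in edgeR). The 3 other members of the same 108.0 kb on chromosome 13 did not pass. Slc17a3, which encodes the urate and drug carrier NPT4, averaged 381 ± 15.5 CPM in AZD1152 kidneys and 346 ± 25.7 CPM in vehicle kidneys (adjusted p = 0.333 in edgeR), while Slc17a2 and Slc17a4 had log2 fold changes of -0.29 ± 0.24 and 0.68 ± 0.27. Slc22a12, which encodes the urate reabsorbing carrier URAT1, averaged 16.9 ± 6.83 CPM in AZD1152 kidneys and 15.0 ± 3.78 CPM in vehicle kidneys (adjusted p = 0.767 in edgeR). It shares exonic positions with Nrxn2 on the other strand. Abcg2, a pump for urate and many drugs, had 283, 486, 352 and 356 CPM in AZD1152 kidneys, against 315, 373 and 255 CPM in vehicle kidneys. The groups overlapped, and its log2 fold change was 0.23 ± 0.19 (adjusted p = 0.488 in edgeR).

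Of 5 classical Slc22a carriers, Slc22a2, Slc22a3, Slc22a6, Slc22a7 and Slc22a8, 4 had positive estimates and 0 passed in edgeR. At an unadjusted p under 0.05 edgeR had 2 with a positive and 1 with a negative estimate, where 24.8% of all genes tested were under it in either direction. DESeq2 called 1 of the 5, Slc22a8, where it called 950 higher and 1183 lower over all 15774 genes tested. Slc22a8, which encodes the anion carrier OAT3, had 689, 1140, 689 and 736 CPM in AZD1152 kidneys, against 585, 609 and 480 CPM in vehicle kidneys. Every treated kidney was above every vehicle kidney, and replicate 2 stood far above the other 3 treated kidneys (log2 fold change 0.55 ± 0.19, adjusted p = 0.115 in edgeR). Without that library it was 0.33 ± 0.11 (adjusted p = 0.119 in edgeR). Slc22a6, which encodes OAT1, had 426, 739, 477 and 447 CPM in AZD1152 kidneys, against 448, 453 and 356 CPM in vehicle kidneys, and overlapped (0.32 ± 0.19, adjusted p = 0.355 in edgeR). Slc22a2, which encodes the cation carrier OCT2, averaged 141 ± 24.1 CPM in AZD1152 kidneys and 103 ± 20.9 CPM in vehicle kidneys (0.46 ± 0.16, adjusted p = 0.122 in edgeR). The groups did not overlap for it. Slc22a3, a cation carrier gene near it on chromosome 17, had at most 1.21 CPM in any library and shares exonic positions with Plg. Slc22a7, which encodes OAT2, had 82.4, 34.8, 47.7 and 92.4 CPM in AZD1152 kidneys, against 93.4, 125 and 110 CPM in vehicle kidneys. Every treated kidney was below every vehicle kidney, though replicate 4 was only just so (log2 fold change -0.77 ± 0.30, adjusted p = 0.147 in edgeR). On the urine side, Slc47a1, which encodes the cation exporter MATE1, had 551, 632, 573 and 561 CPM in AZD1152 kidneys, against 506, 510 and 465 CPM in vehicle kidneys (0.23 ± 0.09, adjusted p = 0.136 in edgeR), with no overlap between the groups. DESeq2 called Slc47a1 higher (adjusted p = 0.0474 in DESeq2). Slc47a2, which encodes a second MATE carrier, had 1 to 10 counts in AZD1152 libraries and 2 to 7 in vehicle libraries, and was not tested.

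Other Slc22a genes were mixed. Slc22a18 averaged 341 ± 34.6 CPM in AZD1152 kidneys and 253 ± 33.4 CPM in vehicle kidneys, with no overlap, and just missed the threshold (log2 fold change 0.43 ± 0.12, adjusted p = 0.0555 in edgeR). It passed with DESeq2 (adjusted p = 0.00786) and limma-voom (adjusted p = 0.0469). Slc22a23, a carrier with no well-described substrate, had 152, 225, 231 and 188 CPM in AZD1152 kidneys, against 137, 167 and 81.6 CPM in vehicle kidneys (0.63 ± 0.23, adjusted p = 0.132 in edgeR). Vehicle replicate 3 was far below the rest, and AZD1152 replicate 1 lay between the vehicle kidneys. DESeq2 also called Slc22a23. Slc22a15 averaged 2.64 ± 0.944 CPM in AZD1152 kidneys and 5.03 ± 1.93 CPM in vehicle kidneys, and Slc22a13, which encodes the carrier OAT10, 49.9 ± 16.9 CPM in AZD1152 kidneys and 64.1 ± 7.68 CPM in vehicle kidneys (adjusted p = 0.123 and 0.382 in edgeR). Slc22a13 shares 36.0% of its 50-base stretches with its pseudogene.

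Apart from Slco2a1, the Slco genes, which encode carriers of bile acids, hormones and large anions, did not pass. Slco1a6, the most abundant of them, had 201, 101, 114 and 183 CPM in AZD1152 kidneys, against 201, 139 and 209 CPM in vehicle kidneys (log2 fold change -0.29 ± 0.25, adjusted p = 0.523 in edgeR). Replicates 2 and 3 of the treated kidneys were below all others, as for Slc22a19. Slco3a1 averaged 60.6 ± 12.1 CPM in AZD1152 kidneys and 67.1 ± 17.3 CPM in vehicle kidneys, and Slco2b1 averaged 17.5 ± 6.58 CPM in AZD1152 kidneys and 16.9 ± 3.55 CPM in vehicle kidneys (adjusted p = 0.708 and 0.928 in edgeR). Slco4a1, a carrier of thyroid hormone, ranged from 5.37 to 19.5 CPM in AZD1152 kidneys and from 9.18 to 25.8 CPM in vehicle kidneys (adjusted p = 0.355 in edgeR). Slco4c1, a carrier of digoxin and thyroid hormone in rat and human kidney, was low here, at 1.28 ± 0.587 CPM in AZD1152 kidneys and 1.56 ± 0.428 CPM in vehicle kidneys. Slco1a1, a kidney carrier known from male mice, had 0 to 2 counts in AZD1152 libraries and 0 to 1 in vehicle libraries, and Slco1a4 had 4 to 7 counts in AZD1152 libraries and 8 to 19 in vehicle libraries; neither was tested.

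In edgeR 0 of the 18 tested ABC genes of the Abcb, Abcc and Abcg families passed, beside 7.83% of all genes tested. At an unadjusted p under 0.05 there were 4 of the 18, beside 24.8% of all genes tested. DESeq2 called 1 of the 18, Abcg3, where it called 950 higher and 1183 lower over all 15774 genes tested. The multidrug pump P-glycoprotein is encoded by a pair of genes in the mouse. Abcb1b had 77.3, 96.2, 64.4 and 65.3 CPM in AZD1152 kidneys, against 66.7, 50.8 and 75.2 CPM in vehicle kidneys, and Abcb1a averaged 24.6 ± 4.57 CPM in AZD1152 kidneys and 22.1 ± 2.18 CPM in vehicle kidneys. Both overlapped between the groups, with log2 fold changes of 0.24 ± 0.17 and 0.15 ± 0.15 (adjusted p = 0.431 and 0.584 in edgeR). Their transcripts share 18.6% (Abcb1a) and 19.6% (Abcb1b) of their 50-base stretches with other genes, mostly each other. Abcb4, a phospholipid exporter best known from liver, next to them on chromosome 5, averaged 2.06 ± 0.426 CPM in AZD1152 kidneys and 1.07 ± 0.355 CPM in vehicle kidneys, with no overlap (0.94 ± 0.31, adjusted p = 0.0987 in edgeR). The mitochondrial transporters Abcb8 and Abcb10 had log2 fold changes of 0.13 ± 0.10 and 0.11 ± 0.10, and the lysosomal peptide transporter Abcb9 had 0.09 ± 0.13.

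The Abcc pumps export conjugates such as glucuronides and glutathione adducts. Abcc2, on the urine side, had 240, 430, 297 and 252 CPM in AZD1152 kidneys, against 231, 306 and 205 CPM in vehicle kidneys (log2 fold change 0.30 ± 0.21, adjusted p = 0.437 in edgeR). Abcc3, a pump of the blood side in other epithelia, had 144, 43.2, 76.3 and 146 CPM in AZD1152 kidneys, against 149, 166 and 231 CPM in vehicle kidneys. All treated kidneys were below the vehicle kidneys, but replicates 1 and 4 only just, and the treated values spread over 3.38-fold (-0.83 ± 0.37, adjusted p = 0.206 in edgeR). Abcc1 averaged 29.5 ± 5.01 CPM in AZD1152 kidneys and 35.2 ± 5.87 CPM in vehicle kidneys, and Abcc5, an exporter of cyclic nucleotides, 56.2 ± 4.98 CPM in AZD1152 kidneys and 54.4 ± 4.5 CPM in vehicle kidneys (adjusted p = 0.333 and 0.796 in edgeR). Abcc6, whose loss in humans causes ectopic mineralization, ranged from 16.5 to 24.4 CPM in AZD1152 kidneys and from 15.7 to 16.7 CPM in vehicle kidneys (adjusted p = 0.2 in edgeR). Abcg1, a cholesterol exporter abundant in macrophages, had 15.5, 9.82, 21.8 and 17.8 CPM in AZD1152 kidneys, against 28.9, 20.1 and 25.1 CPM in vehicle kidneys (-0.61 ± 0.24, adjusted p = 0.153 in edgeR). Abcg3, a rodent relative of Abcg2, had 1.33, 1.86, 3.83 and 2.41 CPM in AZD1152 kidneys, against 6.28, 4.05 and 4.27 CPM in vehicle kidneys, with no overlap (-1.05 ± 0.34, adjusted p = 0.0954 in edgeR). Macrophage markers were lower too, as 9 of 11 fell, beside 4.81% of all genes tested. Their summed level was 440 to 679 CPM in AZD1152 kidneys and 955 to 1300 CPM in vehicle kidneys, with none of the 11 at 0 counts. This was not particular to macrophages, as 6 of 11 T cell and 8 of 15 tubular injury markers fell as well. Among 8 B and plasma cell and 8 endothelial markers 0 were called. The part of macrophages or other cells in the Abcg1 and Abcg3 values was not tested.

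The members varied in order over the libraries, as did the markers of the tubule. Of the 54 genes, 22 peaked in AZD1152 replicate 2 and 14 had their minimum there, and vehicle replicate 3 was the lowest for 24 and the highest for 11. For 18 genes, among them Slc22a2, Slc22a6, Slc22a8, Slc22a22, Slc22a28, Slc22a29, Slc22a30, Slc47a1, Abcc2, Abcc4 and Abcg2, replicate 2 of AZD1152 was highest and replicate 3 of vehicle lowest. For 9 genes, among them Slc22a13, Slc22a19, Slco1a6, Slco2a1 and Abcc3, it was the other way round. The first order held in 10 of 22 proximal tubule markers measured, with 11 highest in AZD1152 replicate 2 and 13 lowest in vehicle replicate 3. The second held in 7 of 15 markers of tubular injury, with 9 lowest in AZD1152 replicate 2 and 12 highest in vehicle replicate 3. Extremes in these 2 libraries were not limited to tubule markers. Of 5 red cell markers, 5 were highest in AZD1152 replicate 2 and 3 lowest in vehicle replicate 3. Of 11 T cell markers, 10 were lowest in AZD1152 replicate 2, and of 8 fibroblast and mesangial markers, 7 were highest in vehicle replicate 3. Of 5 podocyte markers, 0 had an extreme in either library. The shares over all genes were not counted. In Abcc3, Slc17a2, Slc22a7, Slc22a13, Slc22a19, Slco1a6 and Slco4c1 the 2 lowest libraries were AZD1152 replicates 2 and 3. Of 5 loop of Henle markers, 4 were lowest and 1, Cldn10, was highest in AZD1152 replicate 2. Their sums, in which Umod and Slc12a1 weigh most, were 5190, 2910, 3340 and 4680 CPM in AZD1152 replicates 1 to 4, against 5310, 3940 and 5440 CPM in vehicle replicates 1 to 3. The part of the nephron segments sampled in each piece of kidney was not tested.

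**Figure D5:**
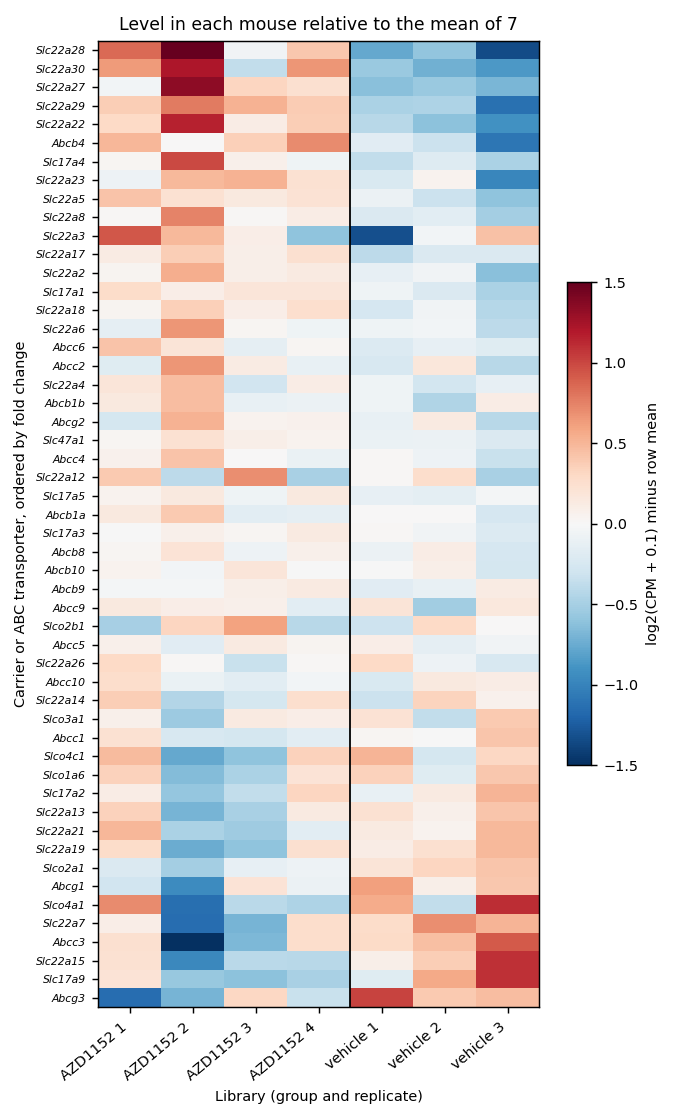
Each row is 1 of 52 tested genes, ordered by fold change, and each column is 1 mouse, AZD1152 left and vehicle right of the line. Colour gives log2(CPM + 0.1) minus the mean of the row, cut at 1.5 either way, and AZD1152 replicate 2 and vehicle replicate 3 carry strong and often opposite colours.

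Partners of the carriers were listed apart from them, as the scaffolds that hold them in the membrane, the exchangers that feed them and the factors that drive their transcription. Of 22 measured, 3 rose and 0 fell, which is 13.6% beside 7.83% of all genes tested in either direction, with a median log2 fold change of 0.11. Hnf4a, a transcription factor of the proximal tubule, had 1060, 1120, 1060 and 1040 CPM in AZD1152 kidneys, against 886, 813 and 707 CPM in vehicle kidneys (0.42 ± 0.10, adjusted p = 0.0387 in edgeR). Pdzk1, which encodes a scaffold that binds Slc22a and Slc17a carriers, averaged 563 ± 22.4 CPM in AZD1152 kidneys and 389 ± 78.5 CPM in vehicle kidneys (0.53 ± 0.13, adjusted p = 0.0455 in edgeR). Slc13a3, a dicarboxylate carrier that keeps up the gradient used by OAT1 and OAT3, averaged 999 ± 130 CPM in AZD1152 kidneys and 690 ± 89.7 CPM in vehicle kidneys (0.53 ± 0.13, adjusted p = 0.0425 in edgeR). The xenobiotic sensors Nr1i2 and Ahr and the oxidant sensor pair Nfe2l2 and Keap1 did not pass.

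The rest of the ABC superfamily, 27 genes of which 22 were measured, had 0 genes higher and 2 lower, which is 9.09% beside 7.83% of all genes tested in either direction, with a median log2 fold change of -0.02. The 2 were Tap1 and Tap2, which encode the peptide pump that loads MHC class I molecules and is induced by interferon, with log2 fold changes of -1.27 ± 0.24 and -0.92 ± 0.17 (adjusted p = 0.02 and 0.0206 in edgeR). Among the cell markers, 9 of 22 proximal tubule genes rose and 0 fell, with a median log2 fold change of 0.62. Over all genes tested 3.02% were higher and 4.81% lower. Slc5a2, the glucose carrier of the early segment, rose by 0.75 ± 0.14 and Cyp4b1, a monooxygenase, by 0.71 ± 0.09 on the log2 scale (adjusted p = 0.0207 and 0.00951 in edgeR). Of 15 tubular injury genes 8 fell and 0 rose, and of 11 T cell genes 6 fell and 0 rose. Of 13 markers of the distal tubule and collecting duct 6 rose and 0 fell, while the median log2 fold changes were 0.20 for 5 podocyte, -0.04 for 8 endothelial, -0.29 for 5 loop of Henle, -0.76 for 8 B and plasma cell and 0.51 for 5 red cell markers, where edgeR called 0 and 1, 1, 1, 3 and 1 had an unadjusted p under 0.05. Of 8 fibroblast and mesangial markers 2 fell, and of 10 liver, adrenal and fat markers 2 could be tested, with edgeR calling 0 and 1 at an unadjusted p under 0.05. The part of tubule cell number or of lower injury in the carriers' values was not tested.

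The 22 genes that did not pass the filter had at most 19 counts in a library. Of these, 8 had 0 counts in all 7 libraries, a count that permits a level of 0.212 CPM or less in the library with fewest reads: Abcb5, Abcc12, Slc22a16, Slc22a20, Slco1a5, Slco1c1, Slco6c1 and Slco6d1. The vesicular glutamate carriers of neurons, Slc17a6, Slc17a7 and Slc17a8, had 0 to 18 counts in AZD1152 libraries and 0 to 8 in vehicle libraries. The bile salt and sterol exporters Abcb11, Abcg5 and Abcg8, best known from liver, had 0 to 7 counts in AZD1152 libraries and 0 to 4 in vehicle libraries. Abcb6, a porphyrin transporter, had 0 to 1 count in AZD1152 libraries and 2 to 4 in vehicle libraries, and 90.3% of its 50-base stretches also belong to the overlapping gene Gm29253, so its level cannot be read from these counts. Slc17a9, a vesicular nucleotide carrier that passed the filter at low level, had 1.09, 0.597, 0.574 and 0.637 CPM in AZD1152 kidneys, against 0.814, 1.43 and 2.11 CPM in vehicle kidneys (log2 fold change -0.99 ± 0.39, adjusted p = 0.16 in edgeR). Slc17a5, which encodes the lysosomal sialic acid carrier sialin, averaged 90.6 ± 6.12 CPM in AZD1152 kidneys and 80.3 ± 3.34 CPM in vehicle kidneys (0.17 ± 0.07, adjusted p = 0.181 in edgeR).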

How the data were processed

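Libraries of poly(A) RNA were made from the kidneys of 7 mice (AZD1152 in 4, vehicle in 3), per the labels' protocols. The deposited table holds raw read counts per gene. The submitters' processing notes name HISAT2 2.0.5, CASAVA, DESeq, DESeq2 and GRCm38; the counter, its strand setting and its annotation release are not given in the sources used here. Without strand, reads of overlapping antisense genes cannot be told apart, and reads of near-identical paralogs can be split or lost. Nothing in the labels ties samples to litters or days, so the fits hold no term for them. The p-values set the difference between groups against the spread between samples within a group, with information shared over genes.

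Counts were tested with edgeR 4.0.16 (R 4.3.3; filterByExpr, TMM, quasi-likelihood), with Benjamini-Hochberg adjustment over 15774 genes and a threshold of 0.05. SE is the log2 fold change divided by the root of F. CPM uses TMM-scaled totals, and CPM per kilobase divides by merged exon length. No pair of the 7 libraries agreed within sampling noise (for the closest of 21 pairs, chi-square over its degrees of freedom was 10.8). On simulated counts over 15561 genes for this comparison, 42.1% of 1.5-fold, 87.2% of 2-fold and 99.1% of 4-fold changes were recovered, and 7.54% of calls were false. The changes were planted in 200 genes a run, drawn from genes above a set level. The recovered shares therefore do not cover low genes such as Slc22a27 and Abcb4. The data gave 1235 calls, more than the genes planted, and the cut on unadjusted p is stricter when fewer genes change. Recovery at the number of changes in the data was not tested. Alternatives were RLE, upper-quartile and total-count scaling, no filter and a filter of 1 CPM in 3 libraries, DESeq2 1.42.0, limma-voom 3.58.1, a replicate block and leaving out each library. Genes named are all called members, set renal members, the 5 highest per length and called genes of each list. Tap1, Tap2, Lcn2 and the partners are from those lists; other genes named were chosen after their values were seen. The members and lists were chosen with earlier results of these data known. Counts over lists include some genes that are not reported here by name. Intervals of 0 counts cover counting error only.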

Additional observations from a re-analysis of the deposited data

Results flagged for a closer look

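In 5 of the 54 tested genes 1 AZD1152 kidney lay far from the other 3, with a gap past the 95% critical value of Dixon's test for 4 samples. Chance gives such a gap in about 1 in 20 groups. Slc22a8 had 1140 CPM in AZD1152 replicate 2, with 689 to 736 CPM in the other 3, and Slc22a6 had 739 CPM there, with 426 to 477 CPM in the others. Slc17a4, a member of the phosphate carrier family, had 13.0 CPM in the same kidney, with 6.23 to 6.89 CPM in the others. Slco3a1 had 42.5 CPM in it, with 65.2 to 68.1 CPM in the others. Slc17a9 had 1.09 CPM in AZD1152 replicate 1, with 0.574 to 0.637 CPM in the others.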

How the results depend on the processing

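Of the alternatives, RLE and upper-quartile scaling and the stricter filter kept the same 8 calls. The limma-voom calls left out Slc22a30 and added Slc22a18. DESeq2 called 13 genes higher and 2 lower, the 8 among them, and over all genes 950 higher and 1183 lower. Total-count scaling gave 233 higher and 1480 lower over all genes, so that 13.6% of calls were higher, beside 38.5%. Leaving out 1 library gave 1 to 6 carriers and transporters higher and 0 to 2 lower, and over all genes 60 to 475 higher and 163 to 619 lower. Correlations of same-numbered deviations from the group means were -0.288, 0.209 and -0.119, and not every sample correlated best with its own number. With so few libraries, these values cannot decide whether the replicate numbers pair the mice, and the labels do not say. With the replicate block 2 carriers were higher and 0 lower, and over all genes 63 higher and 146 lower. Some genes that had not passed changed sign. Under total-count scaling Abcc5 was at -0.10, Slc17a3 at -0.01 and Slco2b1 at -0.10 (log2 fold change), and with limma-voom Slco2b1 was at 0. Leaving out 1 library gave log2 fold changes of 0 to 0.12 for Abcc5, -0.08 to 0.36 for Slc22a12, -0.18 to 0.22 for Slco2b1 and -0.34 to 0.01 for Slco3a1. The cause was not tested. With 4 and 3 mice, 1.5-fold changes were often missed on simulated data in which 200 genes changed. Genes under about 0.212 CPM cannot be read at this depth.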
